A study of Mus musculus with 6 samples.

Results

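NF-kB is a family of dimeric transcription factors, and the 10 genes described here code for its 5 subunits and for 5 proteins grouped as inhibitors. The subunit genes are Rela, Rel, Relb, Nfkb1 and Nfkb2, and the inhibitor genes are Nfkbia, Nfkbib, Nfkbie, Nfkbiz and Tnfaip3. They were chosen by name, as the rows of a deposited FPKM table whose gene symbol equals one of these names, and all 10 of 10 were found among the 15487 genes of the table. FPKM counts fragments per length of gene and per depth of library. The libraries came from tumour-associated macrophages sorted by flow cytometry on day 15 from implanted tumours of CT26, a mouse colon carcinoma line. Tumours carried the label Sg-Con (3 libraries) or Sg-C3 (3 libraries), taken to mean that the tumour cells carry a control guide RNA or a guide RNA against complement C3. All 6 macrophage samples are labelled BALB/C and wild type, so the labels place the guide in the tumour cells and not in the cells measured. The labels do not give the number of animals behind a library or whether the tumour lines were clones. P-values therefore set the difference between the groups only against the spread of these libraries within groups, and that spread may be technical.

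In a resting cell, IκB proteins hold NF-kB dimers in the cytoplasm. In the canonical arm, signals from Toll-like, interleukin 1 and TNF receptors activate the IKK kinase complex, IκB is degraded, and dimers of the Rela, Rel and Nfkb1 products enter the nucleus. In the non-canonical arm, receptors such as CD40 stabilise the kinase encoded by Map3k14, and the Nfkb2 precursor is cut to a subunit that pairs with the Relb product. Several of the genes of the family are themselves textbook targets of NF-kB, among them Nfkbia, Tnfaip3, Nfkb1, Nfkb2, Rel and Relb. In macrophages the family drives cytokine, chemokine and survival genes.

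All 5 subunit genes rose in macrophage samples from Sg-C3 tumours, and the inhibitors split. Nfkbib and Tnfaip3 rose, while Nfkbia, Nfkbie and Nfkbiz did not pass the test. Nfkb1 had the highest fold change of the 10, at 2.21-fold by mean FPKM, and Rela the lowest of the 7 that rose, at 1.38-fold. A gene is said to rise or fall when limma's test on log2(FPKM + 1), fitted across every gene that reached 1 FPKM in 3 or more libraries, gave a Benjamini-Hochberg adjusted p below 0.05. By that rule 7 of 10 members were higher and 0 lower, where 12.7% of the 11198 genes tested were higher, 31.7% lower and 44.4% changed in either direction. All 10 members passed the filter in both groups. The 3 Sg-C3 values lay wholly above the 3 Sg-Con values for the same 7 members, against 16.2% of tested genes, with 41.4% wholly below and 57.6% in either direction. Over all tested genes the log2 fold change had a median of -0.16. Lower genes made up 71.5% of calls in the values as deposited, 57.1% under quantile normalization and 50.5% under median-ratio scaling. Relative to that shift the 5 subunits had a median log2 fold change of 0.83 and the 5 inhibitors one of 0.35.

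The libraries were alike in depth. Depth was taken as the value at which most low values of short non-coding genes fell on whole multiples of 1 read, within 0.1 read. This gave 17.65 to 19.25 megareads per library, at which 81.4% to 92.1% of 86 to 100 low values per library did so. The share by chance is 20% for a depth fixed beforehand, whereas these depths were picked for the highest share. Macrophage genes were present in every library, with Adgre1, the gene of F4/80, at 173 ± 11.6 FPKM in Sg-Con and 172 ± 29.8 FPKM in Sg-C3 (mean ± SD, n = 3, adjusted p = 0.896 with limma). Of 10 macrophage markers 5 fell, among them Lyz2 and Cd68, and 1 rose, where 31.7% of all tested genes fell and 12.7% rose. In RNA from a sorted population, fewer cells of a type and less RNA per cell cannot be told apart.

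Promoter stretches are shown for members with and without a match to the kappa-B consensus, the motif that NF-kB dimers bind, because the members include known targets of the family. Promoters came from the RefSeq table of GRCm38.p6, which holds 7 of the 10 members, not Nfkb1, Relb or Nfkbiz. The consensus has 10 letters and was searched by name on both strands in the 250 bases before the start farthest 5′. Each line below gives the 150 bases before the start, 5′ to 3′ on the gene's strand, with matches in capitals and overlapping matches as 1 run.
Nfkb2, chr19:46304587-46304736, strand +: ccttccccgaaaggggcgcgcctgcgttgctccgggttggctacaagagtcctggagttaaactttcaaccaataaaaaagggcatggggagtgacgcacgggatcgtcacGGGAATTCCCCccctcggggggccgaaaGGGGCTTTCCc
Rel, chr11:23770970-23771119, strand -: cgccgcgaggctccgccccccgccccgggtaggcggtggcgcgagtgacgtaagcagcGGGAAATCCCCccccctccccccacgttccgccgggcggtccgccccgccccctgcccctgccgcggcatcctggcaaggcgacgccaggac
Tnfaip3, chr10:19015411-19015560, strand -: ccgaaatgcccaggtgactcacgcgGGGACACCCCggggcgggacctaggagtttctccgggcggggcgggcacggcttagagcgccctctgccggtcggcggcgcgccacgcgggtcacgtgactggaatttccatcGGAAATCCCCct
Nfkbia, chr12:55492648-55492797, strand -: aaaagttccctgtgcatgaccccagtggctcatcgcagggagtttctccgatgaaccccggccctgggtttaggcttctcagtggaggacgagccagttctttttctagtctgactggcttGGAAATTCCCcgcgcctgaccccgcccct
Nfkbie, chr17:45555550-45555699, strand +: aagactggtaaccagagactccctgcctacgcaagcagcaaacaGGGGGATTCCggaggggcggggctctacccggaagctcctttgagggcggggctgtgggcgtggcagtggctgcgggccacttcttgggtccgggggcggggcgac
Nfkbib, chr7:28766645-28766794, strand -: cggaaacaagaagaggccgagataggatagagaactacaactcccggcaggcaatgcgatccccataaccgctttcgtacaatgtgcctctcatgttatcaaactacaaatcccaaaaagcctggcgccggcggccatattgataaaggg
Matches stood in 5 of the 7 promoters, where 7.03% of 27025 promoters of that length held one. Nfkb2, which rose, held 2 separate stretches, GGGAATTCCCC from 39 bases before the start and GGGGCTTTCC from 11 bases before it. Tnfaip3, which also rose, held GGGACACCCC from 125 bases and GGAAATCCCC from 12 bases before the start, and Rel held GGGAAATCCCC from 92 bases before it. Nfkbia and Nfkbie, which did not pass the test, each held 1 match, GGAAATTCCC from 29 bases and GGGGGATTCC from 106 bases before the start. Nfkbib and Rela, which rose, had no match in these windows. A match was therefore found among members that rose and among members that did not pass, and so was a lack of one among members that rose. A match is a description of letters and not a measured binding site. For Nfkb2, Nfkbib and Nfkbie the bases just after the start used were not found near the 5′ end of a GENCODE transcript of the gene. In those genes the start, and with it the distances or the lack of a match, is therefore uncertain. RefSeq holds 3 starts for Nfkb2 and 2 for Tnfaip3, and only the one farthest 5′ was searched. The values of expression were made on mm8, and no coordinate of one build is set against the other.

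Replicates are given in the order 1, 2 and 3 within each group, and the number only names a library. Replicate 3 of each group has a title in another style than the other libraries of its group (CON_C and SGC3_13), and what the style stands for is not given. With title style as a covariate 7 members were higher, as were 10.7% of all tested genes. Rela had the largest limma adjusted p of these 7 (0.0464). Among the subunits with a transactivation domain, Rel had the largest fold change. Rel, the c-Rel subunit of immune cells, stood at 65.7, 49.15 and 60.03 FPKM in Sg-Con and at 80.2, 98.8 and 99.7 FPKM in Sg-C3. Every Sg-C3 library was above every Sg-Con library, with a log2 fold change of 0.67 (SE 0.14, limma adjusted p = 0.00927). Relb, the subunit of the non-canonical arm, stood at 52.1, 50.3 and 62.1 FPKM in Sg-Con and at 88.3, 77.8 and 76.6 FPKM in Sg-C3. The groups did not overlap, and Relb rose by a log2 fold change of 0.56 (SE 0.11, limma adjusted p = 0.00822). Rela, the main transactivating subunit of the canonical arm, stood at 73.5, 73.05 and 92.8 FPKM in Sg-Con and at 122, 109 and 98.1 FPKM in Sg-C3. Its groups came closest, with Sg-Con replicate 3 just below Sg-C3 replicate 3, and the log2 fold change was 0.46 (SE 0.13, limma adjusted p = 0.0256). The call of Rela was lost on leaving out Sg-Con replicate 1 or 2 (limma adjusted p = 0.0747 and 0.0757) or Sg-C3 replicate 1 or 2 (0.0801 and 0.0745), with log2 fold changes of 0.38 to 0.46.

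Every other subunit had a larger fold change than Rela, and those made as precursors had the largest, differences that were not tested. Nfkb1, whose long product is cut to a DNA-binding subunit without a transactivation domain, stood at 75.6, 74.2 and 119 FPKM in Sg-Con and at 196, 209.7 and 187 FPKM in Sg-C3. Its lowest Sg-C3 value was well above its highest Sg-Con value, and the log2 fold change was 1.17 (SE 0.18, 95% interval 0.74 to 1.59, limma adjusted p = 0.00409). That change exceeded those of 96.4% of tested genes. Nfkb2, the precursor gene of the non-canonical arm, stood at 102, 107 and 132 FPKM in Sg-Con and at 202, 203 and 173 FPKM in Sg-C3. The groups did not overlap, and the log2 fold change was 0.76 (SE 0.12, limma adjusted p = 0.0045). In both genes Sg-Con replicate 3 was the highest control library and Sg-C3 replicate 3 the lowest library of its group.

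**Figure D1:**
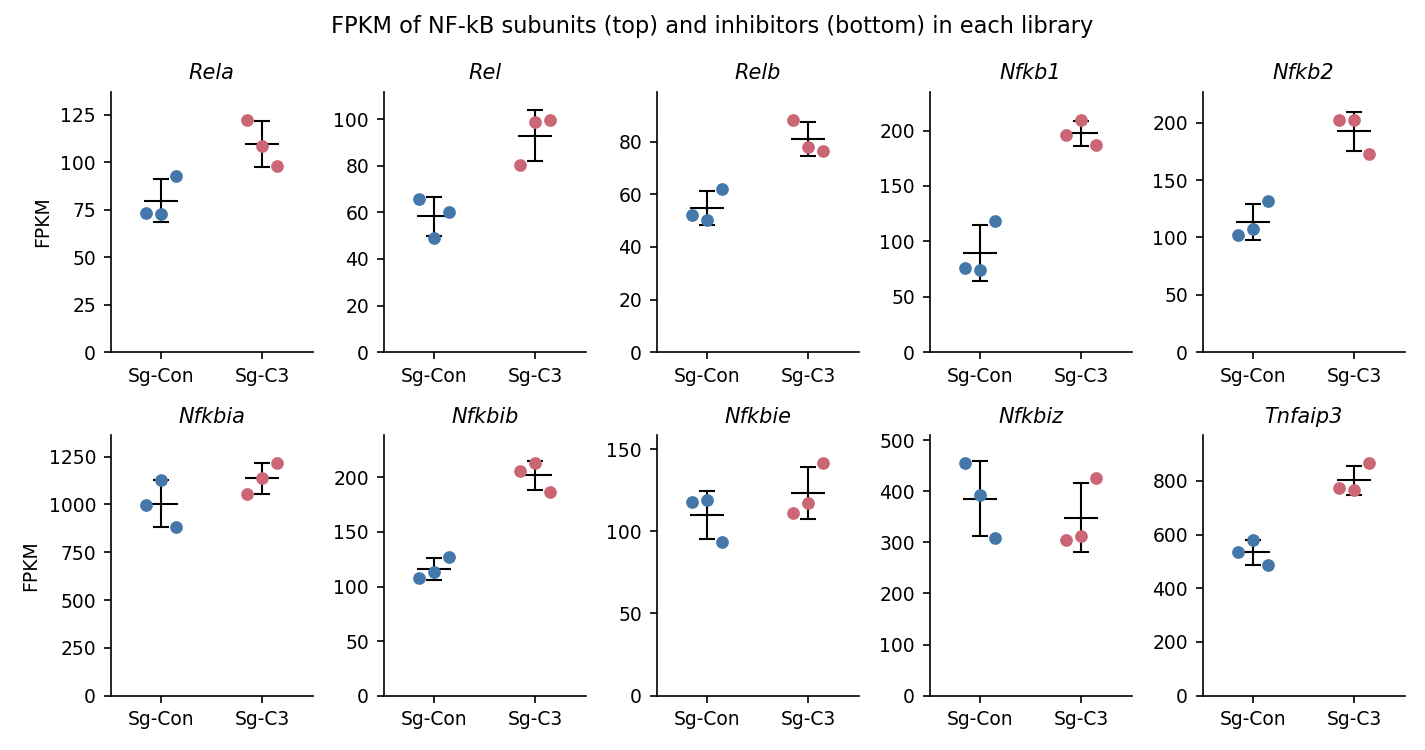
FPKM of the 5 subunit genes (top row) and the 5 inhibitor genes (bottom row) in each library, on a linear axis from 0. Points are the 3 libraries of a group in the order of replicates 1 to 3, and bars are the mean and SD. All 5 subunits, Nfkbib and Tnfaip3 have every Sg-C3 library above every Sg-Con library, while Nfkbia, Nfkbie and Nfkbiz overlap.

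Of the 3 genes of classical IκB proteins, Nfkbib rose. Nfkbib, which codes for IκBβ, stood at 108, 113.5 and 127 FPKM in Sg-Con and at 206, 213 and 187 FPKM in Sg-C3. The groups did not overlap, and its log2 fold change of 0.80 had the smallest p of the 10 members (SE 0.10, limma adjusted p = 0.00221). Nfkbia, which codes for IκBα, the inhibitor that is rapidly made again after activation, was the most abundant member at 999, 1128 and 883 FPKM in Sg-Con and 1055, 1139 and 1215 FPKM in Sg-C3. Sg-Con replicate 2 was above Sg-C3 replicate 1, so the groups overlapped. Its log2 fold change was 0.18 (95% interval -0.09 to 0.46, limma adjusted p = 0.225). Nfkbie, which codes for IκBε, stood at 118, 119 and 93.3 FPKM in Sg-Con and at 111, 117.5 and 141 FPKM in Sg-C3. The groups overlapped, with a log2 fold change of 0.16 (95% interval -0.15 to 0.48, limma adjusted p = 0.348).

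The other two inhibitor genes went apart. Tnfaip3, which codes for the ubiquitin-editing enzyme A20 that dampens signalling above the IKK complex, stood at 535, 581 and 486 FPKM in Sg-Con and at 775, 767 and 865 FPKM in Sg-C3. The groups did not overlap, and Tnfaip3 rose by a log2 fold change of 0.59 (SE 0.10, limma adjusted p = 0.00547). Nfkbiz, which codes for the nuclear protein IκBζ that acts as a cofactor at a subset of target genes, stood at 454, 392 and 308 FPKM in Sg-Con and at 305, 313 and 426 FPKM in Sg-C3. High and low libraries occurred in both groups, and the log2 fold change of -0.14 (95% interval -0.57 to 0.28, limma adjusted p = 0.538) became 0.02 under median-ratio scaling. Its interval was the widest of the 10 members together with that of Nfkb1.

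**Figure D2:**
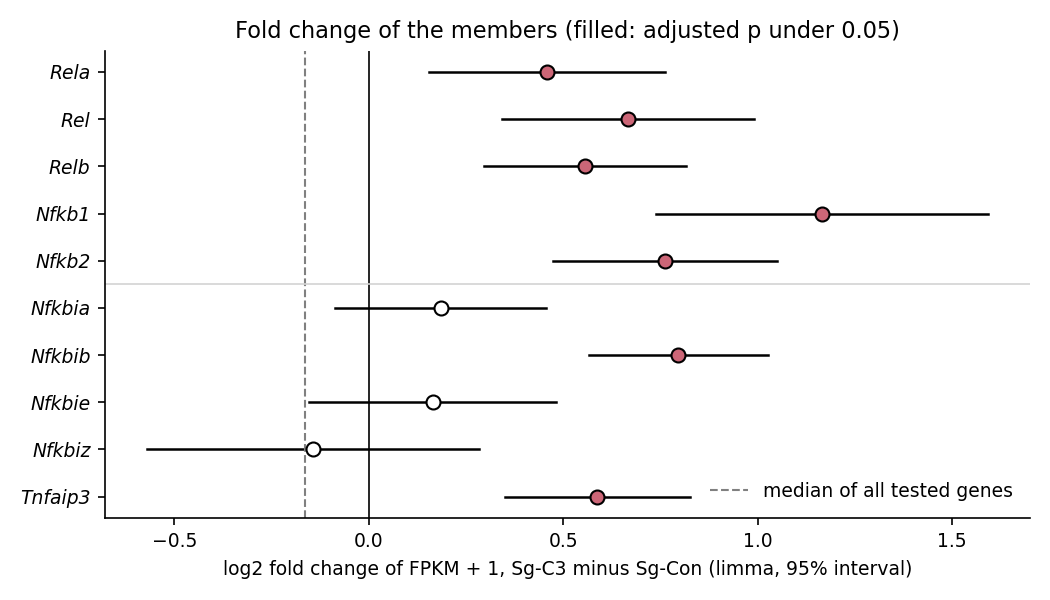
Log2 fold change of each member on the log2(FPKM + 1) scale, Sg-C3 minus Sg-Con, with limma's 95% interval. Filled points have an adjusted p below 0.05, the dashed line marks the median of all tested genes at -0.16, and the intervals of Nfkbia, Nfkbie and Nfkbiz include 0.

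The members differed widely in level, on the FPKM scale, which is per length. In both groups Nfkbia was highest, followed by Tnfaip3 and Nfkbiz, and these 3 did not overlap with their neighbours in the order. In Sg-Con the next 5, Nfkbib, Nfkb2, Nfkbie, Nfkb1 and Rela, overlapped from each gene to the next between 116 and 79.8 FPKM on average. Rel and Relb were lowest, at means of 58.3 and 54.8 FPKM, and overlapped each other. In Sg-C3 Nfkbib, Nfkb1 and Nfkb2 stood together at means of 202, 197 and 193 FPKM, without overlap between Nfkb2 and Nfkbie below them. Nfkb1 ranked 7 of 10 in Sg-Con and 5 of 10 in Sg-C3. All members lay in the upper part of the tested genes, from the 87.3 percentile for Relb to the 99.6 percentile for Nfkbia in Sg-Con.

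Ratios within a library do not depend on a scaling factor applied to that library, although quantile normalization can move them. Nfkb1 held a larger share of the subunit RNA in every Sg-C3 library. It made up 20.5%, 21.0% and 25.5% of the summed FPKM of the 5 subunits in Sg-Con and 28.4%, 30.1% and 29.4% in Sg-C3. The share of Rela was lower, at 20.2% ± 0.401 in Sg-Con and 16.3% ± 1.28 in Sg-C3 (SD, n = 3), and its groups did not overlap. The share of Nfkb2 stood at 28.7% ± 1.41 and 28.6% ± 1.13, with overlap. Against Rela, the log2 ratio of Nfkb1 was 0.14 ± 0.19 in Sg-Con and 0.85 ± 0.15 in Sg-C3, and that of Nfkbib 0.55 ± 0.09 and 0.88 ± 0.11, without overlap. The ratios of Tnfaip3, Nfkbia, Nfkbie, Nfkbiz and Rel to Rela overlapped between the groups. With 3 libraries against 3 these ratios were not tested.

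The summed RNA of the 5 subunits was higher in every Sg-C3 library, at 634 to 698 FPKM against 354 to 465 FPKM. The sum of the IκB genes Nfkbia, Nfkbib and Nfkbie was 1373 to 1543 FPKM in Sg-C3 and 1103 to 1361 FPKM in Sg-Con. The ratio of those IκB genes to the subunits was 3.32, 3.84 and 2.37 in Sg-Con and 1.99, 2.11 and 2.43 in Sg-C3. Sg-Con replicate 3 lay within the range of Sg-C3, so the ratio overlapped between the groups. Within the IκB sum, Nfkbib held 9.55% ± 1.72 in Sg-Con and 13.9% ± 1.55 in Sg-C3, without overlap. These are RNA levels, and protein was not measured in the data used here.

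**Figure D3:**
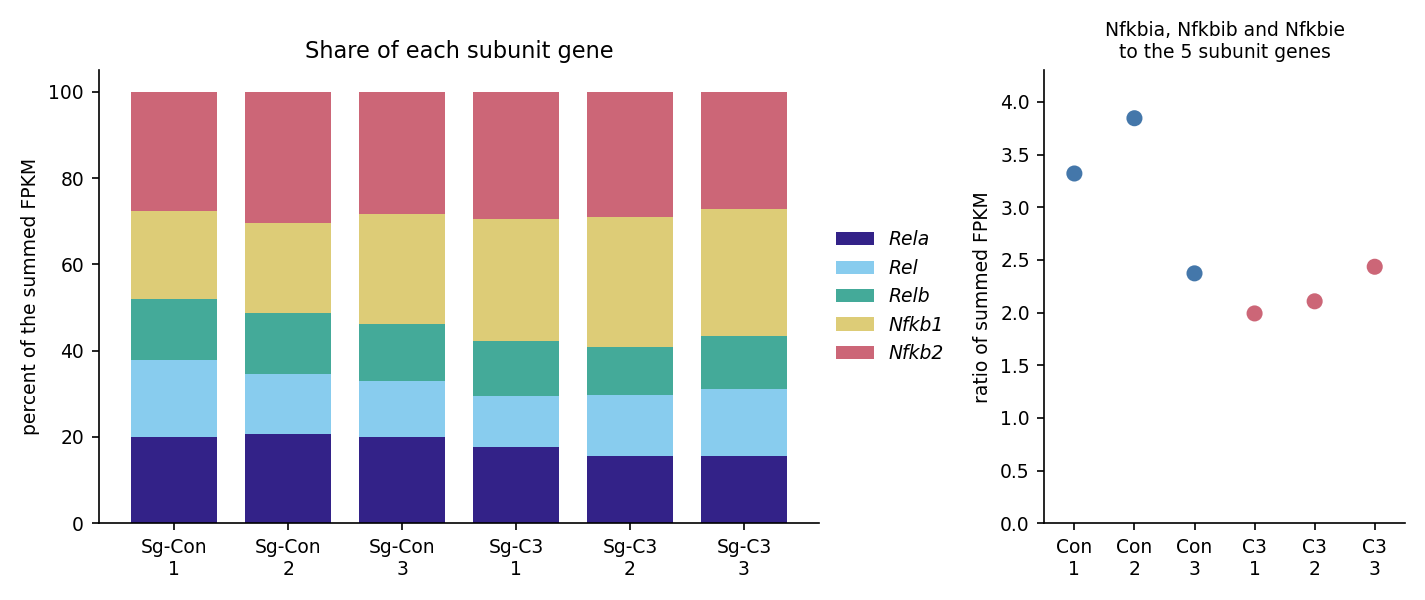
Left, share of each subunit gene in the summed FPKM of the 5 subunit genes for each library, as stacked bars in percent. Right, ratio of the summed FPKM of Nfkbia, Nfkbib and Nfkbie to that of the 5 subunits for each library, where Sg-Con replicate 3 (2.37) lies below Sg-C3 replicate 3 (2.43).

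Within groups the members fell into opposite orders, a pattern chosen after the values were seen. Rela, Relb, Nfkb1, Nfkb2 and Nfkbib, 5 of 10 members, were highest in replicate 3 among the Sg-Con libraries and lowest in replicate 3 among the Sg-C3 libraries. Nfkbia, Nfkbie, Nfkbiz and Tnfaip3, 4 of 10 members, were lowest in the former and highest in the latter. How many of all tested genes had either order was not counted, so neither order is shown to be particular to the members. The summed FPKM of 20 immediate early and heat shock genes, which respond to stress and to tissue handling, was also lowest in replicate 3 among the Sg-Con libraries and highest in replicate 3 among the Sg-C3 libraries. These sums were 6738, 6190 and 5120 FPKM in Sg-Con and 4590, 3674 and 7843 FPKM in Sg-C3. In that list 1 of 20 genes rose and 3 fell, against 12.7% and 31.7% of all tested genes. The lower genes numbered 10 without Sg-C3 replicate 3, 0 on leaving out Sg-C3 replicate 1 or 2, and 1 on leaving out Sg-Con replicate 1 or 2, and 2 rose without Sg-C3 replicate 2. With replicate 3 of Sg-C3 left out, the log2 fold changes of Nfkbia, Nfkbie and Nfkbiz were 0.14, 0.06 and -0.30, and none of them passed, while Tnfaip3 still rose by 0.53 (limma adjusted p = 0.0123). Replicate 3 is in both groups the library whose title is in the other style. The part of the immediate early genes in these values was not tested.

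Upstream of the members stand the ligands, receptors and kinases of each arm. In the non-canonical list 5 of 9 tested genes rose and 1 fell, with a median log2 fold change of 0.60. Of all tested genes 12.7% rose and 31.7% fell. Cd40, a receptor of the TNF family, rose from 16.2 ± 5.68 to 121 ± 32.5 FPKM (log2 fold change 2.86, limma adjusted p = 0.00153). Ltb, a membrane-bound ligand of the lymphotoxin beta receptor, rose from 2.64 ± 1.41 to 16.4 ± 4.96 FPKM, and Traf3, which keeps the Map3k14 kinase low, rose from 10.4 ± 1.96 to 22.8 ± 4.36 FPKM. Map3k14 itself stood at 7.23 ± 1.26 and 9.94 ± 1.73 FPKM and did not pass (limma adjusted p = 0.0707), but it was higher under quantile normalization (0.0208) and median-ratio scaling (0.0256). The ligand gene Tnfsf12 fell from 38.1 ± 3.42 to 23.8 ± 4.11 FPKM.

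Of the canonical ligands and receptors 3 of 13 were higher and 3 lower, against 12.7% and 31.7% of all tested genes. Their median was 0.22. Il1a, a ligand of the interleukin 1 receptor, rose from 592 ± 68.8 to 1030 ± 73.2 FPKM (limma adjusted p = 0.00301). Tnf stood at 555 ± 47.9 and 653 ± 26.4 FPKM and did not pass (limma adjusted p = 0.0788), other than under median-ratio scaling (0.0171). Il1b and Tlr9 also rose, by log2 fold changes of 0.78 and 1.26. Tlr7, a sensor of RNA, fell from 46.0 ± 5.2 to 29.3 ± 3.19 FPKM. The receptor genes Tnfrsf1a and Tlr4 fell too, from 72.6 ± 5.57 to 54.6 ± 4.36 FPKM and from 7.98 ± 1.58 to 5.69 ± 0.125 FPKM (limma adjusted p = 0.016 and 0.0484). The lower genes numbered 1 under median-ratio scaling, without Sg-Con replicate 1, or on leaving out Sg-C3 replicate 1 or 2. Without Sg-C3 replicate 2, 1 was higher.

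Between the receptors and the subunits, 6 of 23 genes of the IKK complex and its adaptors rose and 4 fell, with a median of 0.15. The shares over all tested genes were 12.7% and 31.7%. Malt1, a paracaspase that cleaves inhibitors of the pathway, rose from 71.2 ± 11.2 to 187 ± 18.5 FPKM (log2 fold change 1.38, limma adjusted p = 0.00137). Birc2, Ripk1, Myd88 and Irak2, which carry signals from TNF, Toll-like and interleukin 1 receptors, rose by log2 fold changes of 0.88, 0.59, 0.61 and 0.64. Card9, an adaptor of C-type lectin receptors, fell from 31.7 ± 4.35 to 15.6 ± 4.7 FPKM, and Tab1 fell by 0.93 on the log2 scale. Ikbkg and Irak4 also fell, with log2 fold changes of -0.29 and -0.47 (limma adjusted p = 0.0424 and 0.0474). The kinase subunit genes Chuk and Ikbkb had log2 fold changes of 0.08 and 0.22 and did not pass (limma adjusted p = 0.494 and 0.145), and Ikbkb did under median-ratio scaling (0.0401). Under median-ratio scaling 13 of this list were higher and 2 lower. Of all 11198 tested genes 18.6% (2088) were then higher and 2134 lower. In this list 2 were also lower on leaving out Sg-Con replicate 1 or 2 or Sg-C3 replicate 1 or 2.

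Other IκB proteins and negative regulators included 5 of 16 higher and 3 lower genes, with a median of 0.11. Among all tested genes 12.7% were higher and 31.7% lower. Tnip1, a partner of A20, rose from 76.8 ± 12.3 to 200.4 ± 39.1 FPKM (log2 fold change 1.36, limma adjusted p = 0.00235). Bcl3, an IκB-like nuclear protein that binds the Nfkb1 and Nfkb2 products, rose from 35.95 ± 3.21 to 55.0 ± 2.56 FPKM. Nfkbid, another nuclear IκB gene, fell from 70.1 ± 1.44 to 43.0 ± 7.07 FPKM (log2 fold change -0.71, limma adjusted p = 0.00597). The nuclear IκB genes Bcl3, Nfkbid and Nfkbiz therefore had 3 outcomes, higher, lower and not passing.

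Downstream, 20 of 33 tested textbook target genes rose and 3 fell, against 12.7% and 31.7% of all tested genes. Their median log2 fold change was 0.82, against -0.16 over all tested genes. Il12b, a subunit of interleukin 12, rose from 1.42 ± 1.1 to 16.8 ± 3.42 FPKM, and Il6 rose from 19.7 ± 4.54 to 90.5 ± 33 FPKM. The survival genes Bcl2a1a, Bcl2a1b and Bcl2a1d rose by log2 fold changes of 1.21, 0.90 and 1.26, although their near-identical sequences can share reads. Icam1, an adhesion receptor gene, rose from 104 ± 11.2 to 183 ± 15.6 FPKM, and Gadd45b rose by 0.76. Ccl2, the monocyte attractant, fell from 963 ± 20.7 to 309 ± 38.8 FPKM (log2 fold change -1.64, limma adjusted p = 7.80e-04), and Bcl2l1 fell from 43.4 ± 5.39 to 26.8 ± 4.99 FPKM. Cxcl1 and Cxcl2, neutrophil attractants on the same list, had log2 fold changes of -0.31 and 0.28 and did not pass (limma adjusted p = 0.213 and 0.202). Many of these targets also respond to other pathways, and this list does not separate them.

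**Figure D4:**
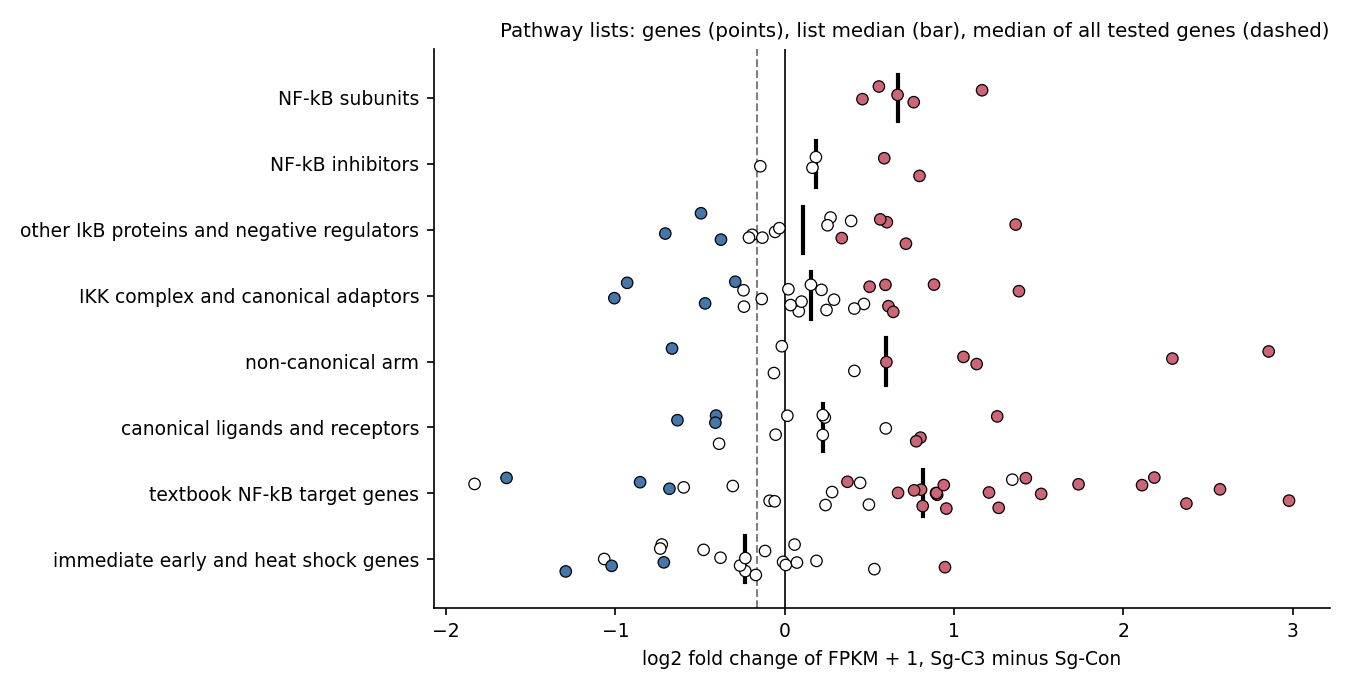
Log2 fold change of every tested gene in the 8 lists of the pathway and of handling stress, Sg-C3 minus Sg-Con. Red points rose, blue points fell and white points did not pass, thick bars are list medians, and the dashed line is the median of all tested genes at -0.16. The medians of the subunits (0.67), the non-canonical arm (0.60) and the target genes (0.82) lie farthest to the right.

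Markers of other cell types in which these genes are also active differed between the groups. Of 8 tested markers of mature dendritic cells, where the Relb and Nfkb2 products are prominent, 4 rose and 1 fell. For this and the counts that follow, the shares over all tested genes were 12.7% and 31.7%. Ccr7 rose from 2.43 ± 0.986 to 32.8 ± 12.4 FPKM, while Fscn1 stood at 7.59 ± 1.11 and 7.62 ± 1.16 FPKM. The 9 markers summed to 317 to 408 FPKM in Sg-Con and 257 to 332 FPKM in Sg-C3, mostly from Cd83, which fell. Of 3 tested markers of conventional dendritic cells 2 rose, with sums of all 9 of 8.88 to 22.0 and 20.8 to 24.2 FPKM, and Flt3, Zbtb46, Cd209a and Itgae were under 1 FPKM in every library. Neutrophil markers rose in 4 of 6 tested genes, with sums of 137 to 216 and 376 to 1322 FPKM, highest in Sg-C3 replicate 1. These sums came mostly from S100a8 and S100a9. Cxcr2 did not pass, nor did Mmp8, at 19.0 ± 5.85 and 9.5 ± 6.37 FPKM. Ly6g, Mpo, Camp and Ltf were too low to be tested. NK cell markers summed to 1.52 to 4.15 FPKM in Sg-Con and 31.2 to 38.4 FPKM in Sg-C3, and T cell markers to 1.88 to 3.28 and 5.58 to 7.12 FPKM. Fibroblast markers summed to 59.2 to 79.7 and 139 to 201 FPKM, with 3 of 6 tested genes higher and 1 lower. In Sg-C3 the sum came mostly from Dcn, which rose from 21.9 ± 5.96 to 114 ± 25.5 FPKM. Col1a2 fell from 13.2 ± 2.1 to 8.45 ± 1.07 FPKM, and Col1a1 and Pdgfra did not pass. Carcinoma markers, led by Krt8 in Sg-Con, summed to 15.2 to 29.5 and 2.24 to 3.03 FPKM. No count of calls is given for NK cell, T cell and carcinoma markers, because members such as Gzma, Cd3g and Krt8 reached 1 FPKM in 1 group only, which fixed their direction. Endothelial markers summed to 9.55 to 18.0 and 60.1 to 79.1 FPKM, mostly from Pecam1, which rose from 8.99 ± 4.06 to 61.25 ± 11.7 FPKM. The other endothelial genes did not follow it, with Cdh5 at 1.84 ± 0.723 and 0.703 ± 0.157 FPKM and Kdr at 3.29 ± 0.87 and 4.35 ± 0.985 FPKM. No marker of these lists that the table holds was at 0 in all libraries. The part of these cells in the values of the members was not tested. Without Sg-C3 replicate 1, the library with the highest sum of neutrophil markers, 6 members rose, all those above other than Rela. Without that library 7.98% of all tested genes rose. The call of Rela was also lost on leaving out other libraries, as given above. The neutrophil sums of the other Sg-C3 libraries, 697 and 376 FPKM, were still above those of Sg-Con. Leaving out replicate 1 therefore cannot separate the members from these markers.

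The genes most like Nfkbib and Nfkbiz over the 6 libraries were found by Pearson's r of log2 values among 7419 other genes with a mean of at least 5 FPKM. Nfkbib, the member with the smallest p among those higher, was closest to Malt1 (r = 0.9998), Jak2 (0.998) and Ets1 (0.997). Nfkbiz, the member whose fold change was below 0, was closest to Vav1 (r = 0.985), Slc35b2 (0.978) and Stx16 (0.976). All of these values share the 6 libraries and, for Nfkbib, the difference between the groups, so they only describe likeness.

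**Figure D5:**
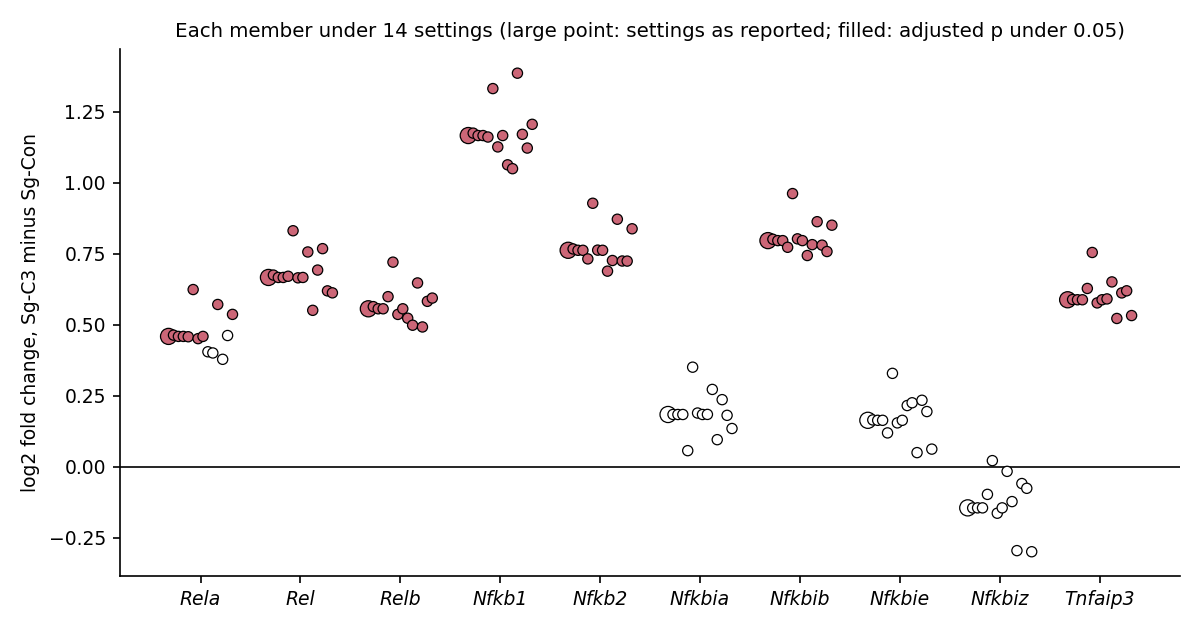
Log2 fold change of each member, Sg-C3 minus Sg-Con, under 14 settings. The large point of each gene is the setting reported above and small points are the 13 alternatives, filled where the adjusted p was below 0.05. Rel, Relb, Nfkb1, Nfkb2, Nfkbib and Tnfaip3 are filled in all, Rela in all but 4, and Nfkbia, Nfkbie and Nfkbiz in none.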

How the data were processed

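RNA was measured in 6 libraries, 3 per group, from 1 deposited table whose columns the authors name FPKM per the file headers, with 2 decimals. The submitters' processing notes name Bowtie 0.12.2 and mm8, and how FPKM were computed is not stated there. Per the labels' protocols, 2 library kits are named, TruSeq and MGIEasy, for every library alike, and which of them made which library is not given. Replicates were numbered in accession order. The test was limma 3.58.1 (R 4.3.3) on log2(FPKM + 1), with eBayes using a mean-variance trend, over every gene that reached 1 FPKM in 3 or more libraries. P-values were adjusted by Benjamini-Hochberg over all of these. The scale understates changes of low genes. SE is the moderated error from limma, SD is over 3 libraries, and fold is the ratio of mean FPKM. The script was tested on simulated data. Depth was estimated with 36 bases taken from each gene's length. Tables and plots were made in Python 3.11.15 (matplotlib 3.10.9, scipy 1.17.1, numpy 2.4.6, pandas 2.3.3).

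The members and lists were chosen with earlier results of these data known. The text names the 10 members, and from each pathway list genes that were called or were among the 4 with the smallest p. Chuk, Ikbkb, Tnf, Map3k14, Cxcl1, Cxcl2, Fscn1 and other genes named as not passing were chosen after their values were seen. Of the listed pathway genes Tnfrsf13c, Tnfsf11 and Ccl20 were not analysed here. A further list of cell type markers is not reported here. Alternatives were array weights, median-ratio scaling, quantile normalization, a pseudocount of 0.1, no filter, a mean of at least 5 FPKM, the style of the titles as a covariate, and 1 library left out at a time.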

Additional observations from a re-analysis of the deposited data

How the results depend on the processing

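No paired analysis was possible because the labels give no replicate numbers that the groups share. Over 13 alternatives 7 members were higher under the 7 that keep all libraries, between 6 and 7 when a library was left out, and 0 were lower under any. The log2 fold changes of Nfkb1 ran from 1.05 to 1.39, those of Nfkbib from 0.74 to 0.96, of Nfkb2 from 0.69 to 0.93, of Rel from 0.55 to 0.83, of Relb from 0.49 to 0.72 and of Tnfaip3 from 0.52 to 0.75, all with adjusted p of at most 0.0398. Nfkbia ran from 0.06 to 0.35 with adjusted p from 0.062 to 0.722, and Nfkbie from 0.05 to 0.33 with adjusted p from 0.101 to 0.777. Nfkbiz turned from -0.14 to 0.022 after median-ratio scaling (adjusted p = 0.932). The cause of these changes was not tested.

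Of all tested genes 1418 were higher and 3554 lower. After median-ratio scaling 2088 (18.6%) were higher and 2134 lower. With a library left out the higher genes numbered 810 to 1423 and the lower ones 1970 to 3639. In the IKK and adaptor list the lower genes numbered 2 with no filter, with a mean of at least 5 FPKM, after quantile normalization, after median-ratio scaling and with the title style as a covariate, and 2 to 4 with a library left out, and after median-ratio scaling 13 were higher. Among canonical ligands and receptors 1 was lower after median-ratio scaling, and with a library left out 1 to 3 were lower and 1 to 3 higher. Of the immediate early and heat shock genes 6 were lower with array weights, and with a library left out 0 to 10 were lower and 1 to 2 higher. Depth does not limit the members, the least abundant of which stood at 49.15 FPKM or more in every library.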

Other observations

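Promoter matches to the kappa-B consensus were also counted beyond the members, as a description with no test. Of the 8856 tested genes with a promoter in the RefSeq table of GRCm38.p6, 8.75% held a match in the 250 bases before the start, as did 10.4% of those called higher and 8.25% of those called lower. Among textbook NF-kB target genes 10 of 25 promoters (40%) held one. Tested genes with a match were higher in 14.6% and lower in 30.8% of cases, and those without in 12.04% and 32.9%.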
